A study of Mus musculus with 8 samples.

Results

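The members described here are the 24 RNA families that the deposited small RNA table assigns to transfer RNA (tRNA, 2 families), ribosomal RNA (rRNA, 10 families) and small nuclear RNA (snRNA, 12 families), out of 5716 small RNAs listed. Every family of these types was taken, whatever its values. Each family is a total over all reads that matched an Rfam family model, so the table shows neither which gene copy nor which piece of the RNA the reads came from. The reads were taken from mesenchymal stromal cells (MSCs) of untreated male C57BL/6J mice of 8 weeks, sorted as CD45-:CD31-:SCA1+ cells from pancreas (pMSCs, libraries 5 to 8) or from inguinal white adipose tissue (iwatMSCs, libraries 13 to 16). Cells of 3 to 5 mice were pooled and grown for 4 days before RNA isolation, and 4 libraries were made for each tissue. The study's methods took pancreas and iWAT from the same animals, but the labels tie no library to an animal, so the 8 libraries were compared as independent. Nothing states that they came from separate cultures, and p-values here measure the spread between these libraries only.

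tRNAs carry amino acids to the ribosome, and cleavage within the anticodon loop or the side arms gives stable tRNA fragments that small RNA sequencing picks up. The cytosolic ribosome of mammals holds 18S rRNA in its small subunit and 28S, 5.8S and 5S rRNA in its large subunit, whereas mitochondrial ribosomes hold 12S and 16S rRNAs of bacterial descent. snRNAs are the RNA parts of the particles that splice pre-mRNA: U1 pairs with the 5′ splice site, U2 with the branch point, and U6, delivered in a pair with U4, joins U5 in the catalytic center. U11, U12, U4atac and U6atac serve the same steps in the minor spliceosome, and U7 acts in 3′ end processing of replication-dependent histone mRNAs. In small RNA libraries of whole cells, short pieces of these abundant RNAs appear beside miRNAs, and their number depends on both the amount and the breakage of the parent RNA.

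Annotated mouse copies of 3 of these RNAs are shown to give the families a concrete sequence and to mark the bases each one works with. They come from the GENCODE M21 transcripts (GRCm38), written as DNA from 5′ to 3′, and each is 1 annotated copy and not the shown source of the reads. Rnu1a1 (chr11:87422867-87423030, plus strand, 164 bases) is a U1 gene, with the stretch that pairs with the 5′ splice site in capitals. Rnu2-10 (chr11:101658238-101658428, plus strand, 191 bases) is a U2 gene, with the branch point recognition stretch in capitals. Rnu7 (chr6:124741225-124741286, minus strand, 62 bases) is the U7 gene, with part of the binding site of its Sm protein ring in capitals.
U1 (Rnu1a1): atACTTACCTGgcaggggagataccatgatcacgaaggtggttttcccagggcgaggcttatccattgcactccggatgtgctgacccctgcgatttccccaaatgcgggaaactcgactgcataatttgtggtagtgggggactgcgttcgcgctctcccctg
U2 (Rnu2-10): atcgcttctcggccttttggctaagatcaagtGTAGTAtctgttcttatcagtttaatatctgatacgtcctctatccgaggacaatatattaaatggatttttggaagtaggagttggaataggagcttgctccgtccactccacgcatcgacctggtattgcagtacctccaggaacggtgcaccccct
U7 (Rnu7): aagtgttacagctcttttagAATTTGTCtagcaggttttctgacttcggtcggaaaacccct
Each marked stretch occurred once in its transcript.

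The libraries held 20793619 to 25824261 reads over all small RNA types, of which miRNA hairpins took 38.3% to 44.3% and mature miRNAs 35.8% to 41.0%, and no pair of libraries had identical counts. pMSCs library 7 stood apart in the second value that was deposited for each small RNA, called TPM: it came to 18.6% of the reads for tRNA, 19.6% for rRNA and 30.9% for snRNA, against 97.9% to 99.2%, 91.0% to 97.0% and 98.4% to 99.6% in the other 7 libraries. For mature miRNAs it came to 0.0126% in library 7 and to 37.9% to 45.8% elsewhere. Read counts, in which no such gap was seen, were therefore used throughout, over all 8 libraries and without each one in turn. Summed levels of all 5 mesenchymal marker miRNAs were 23153 to 26837 CPM (reads scaled to a common library total) in pMSCs and 13469 to 19281 CPM in iwatMSCs. The 5 epithelial markers summed to 93.0 to 217 CPM in pMSCs and to 4.76 to 7.30 CPM in iwatMSCs, and the 4 exocrine markers to 4.41 to 21.1 CPM and to 0.121 to 0.269 CPM. At 0 in at least 1 library were 3 exocrine, 2 epithelial and 2 blood markers. The summed levels of the islet markers (410.5 to 781 against 427 to 679 CPM), the 5 blood markers (11.8 to 29.0 against 12.3 to 31.6 CPM) and the endothelial markers (86.4 to 155 against 71.8 to 128.5 CPM) overlapped between the tissues, although 1 of the 2 islet markers was called higher in pMSCs by edgeR. Called higher in pMSCs by edgeR were also all 5 epithelial, 3 of the 4 exocrine and 2 of the 5 mesenchymal markers, and no marker was called lower. The part of other cell types in the differences below was not tested.

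**Figure D1:**
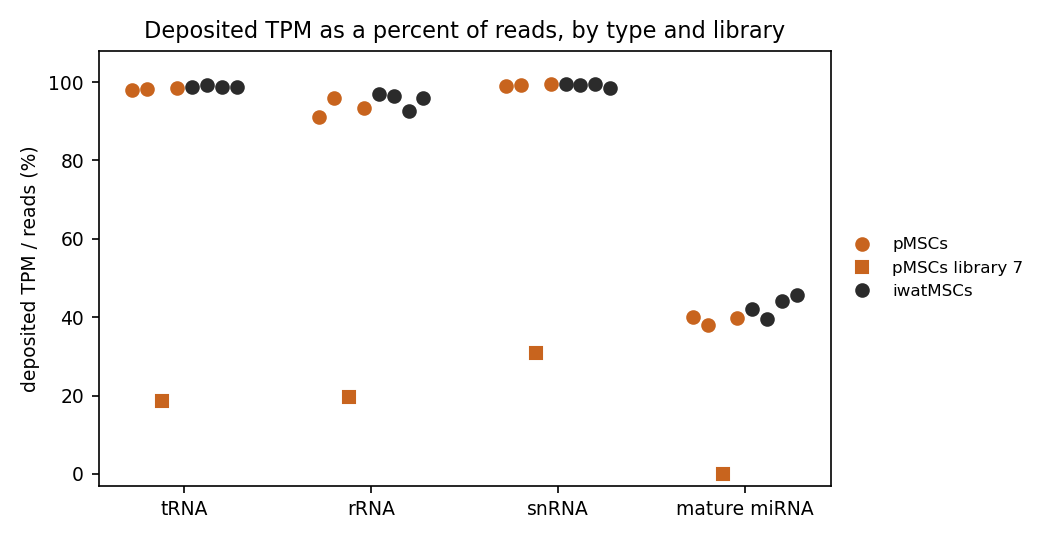
Deposited TPM as a percent of the reads (vertical axis) for tRNA, rRNA, snRNA and mature miRNA in each library, with pMSCs in orange, iwatMSCs in black and pMSCs library 7 as squares. Library 7 lies at 18.6%, 19.6%, 30.9% and 0.0126%, below all other libraries in each type.

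The first question was how much of the small RNA pool these 3 types took in each tissue. tRNA made up 0.0861%, 0.0585%, 0.0991% and 0.0423% of all reads in pMSCs libraries 5 to 8 and 0.0917%, 0.121%, 0.030% and 0.106% in iwatMSCs libraries 13 to 16. Both the lowest and the highest tRNA share were thus found in iwatMSCs, and the tissues overlapped. rRNA took 0.876%, 0.406%, 0.424% and 0.396% in pMSCs and 0.499%, 0.901%, 0.704% and 1.06% in iwatMSCs. Library 5 was the high one of the pMSCs, within the range of iwatMSCs, and the other 3 pMSCs libraries lay below all iwatMSCs libraries. snRNA was the rarest type, with 0.0120%, 0.00655%, 0.00642% and 0.00584% in pMSCs and 0.00595%, 0.0112%, 0.00538% and 0.0195% in iwatMSCs. rRNA supplied 80.1% to 95.2% of the reads of the 3 types together.

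None of the 3 shares passed the test between the tissues. The mean tRNA share was 0.0715% ± 0.0258 in pMSCs and 0.0872% ± 0.0401 in iwatMSCs (SD, n = 4 each), with p = 0.543 in a two-sided exact permutation test (adjusted p = 0.686 over the 3 types). The mean rRNA share was 0.525% ± 0.234 and 0.791% ± 0.243 (SD, n = 4 each; exact permutation p = 0.171, adjusted p = 0.514). The mean snRNA share was 0.00770% ± 0.00287 and 0.0105% ± 0.00656 (SD, n = 4 each; exact permutation p = 0.686, adjusted p = 0.686). With 4 against 4 libraries this exact test cannot go below p = 0.0286. After adjustment over the 3 types, 1 type alone at that value could not pass. Without the hairpin reads in the total, the mean rRNA share was 0.913% in pMSCs and 1.37% in iwatMSCs, and the mean tRNA share 0.124% and 0.153%, and neither passed the test. Counting error was small beside these spreads: the 95% Wilson interval of the tRNA share was 0.0292% to 0.0307% in library 15 and 0.120% to 0.123% in library 14, and that of the snRNA share was 0.00508% to 0.00569% in library 15 and 0.0190% to 0.0201% in library 16. These intervals cover counting error only. In such pooled material, fewer cells of a type and less RNA per cell cannot be told apart.

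**Figure D2:**
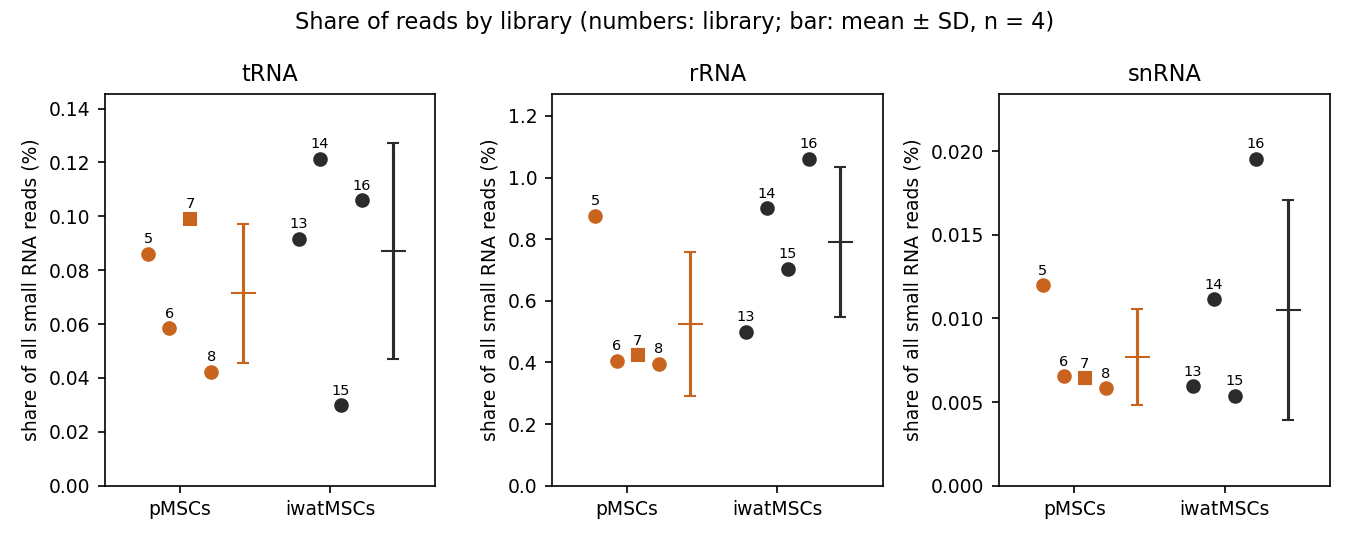
Share of all small RNA reads (percent, vertical axis) taken by tRNA, rRNA and snRNA in each library, with pMSCs in orange, iwatMSCs in black, library numbers beside the symbols and bars at the mean ± SD (n = 4). The tissues overlap in all 3 panels, and pMSCs library 5 stands out with 0.876% rRNA, where libraries 6 to 8 have 0.396% to 0.424%.

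The second question was which single families differed by tissue. Of the 24 members, 23 reached a mean of 1 read or more in either tissue and entered edgeR's quasi-likelihood test with 4092 small RNAs in all, and 1, the Dictyostelium signal recognition particle family, had 0 reads in all 8 libraries. Only 17 members had reads in every library, and 7 had fewer than 100 reads in total. Over the whole table, 3.42% of the small RNAs had an adjusted p under 0.05, and 1.61% were lower in pMSCs. Among the members, 2 of 23 were called, both rRNA families and both lower in pMSCs. With 23 members, 2 calls do not set them apart from that background. At an unadjusted p under 0.05 there were 7 of 23 members, all lower in pMSCs, against 15.2% of all small RNAs tested. The lower ones made up 8.04% of the table. Besides 5S rRNA and U7, these 7 were related models of bacterial and archaeal rRNA. Whether such models drew on the same kind of reads was not tested, so the 7 do not count as independent members. The same limit applies to the 10 rRNA families, of which 6 are models of other organisms. The log2 fold change, pMSCs over iwatMSCs, was negative for 17 members and positive for 6. Its median was -0.87 over the members, or -0.53 with U12, which had no read in pMSCs, set at the bound that a floor of 3 reads gives. Over all small RNAs tested the median was -0.16, with 57.4% negative. Among the types most like the members, 70.1% of snoRNAs, 67.4% of other Rfam families and 65.8% of piRNAs were negative, beside 73.9% of the members. All 10 rRNA families were negative (median -1.26), as were both tRNA families (median -0.53), except that 5.8S, 18S and 28S rRNA and the tRNA family turned positive when the members were scaled among themselves alone, 5.8S also without library 6, 7, 8, 14 or 16 (at most 0.22) and the tRNA family also without library 8 or 14 (at most 0.054). Of the snRNA families 5 were negative and 6 positive (median 0.08), and U6 turned negative with library totals in place of TMM scaling. Libraries of 1 tissue varied more in the members than in miRNAs, though not more than in snoRNAs: among those with a mean of at least 10 CPM, the median SD within a tissue was 0.744 on the log2(CPM + 1) scale over 12 members, 0.323 over all 771, 0.286 over 284 mature miRNAs, 0.590 over 121 piRNAs, 0.641 over 7 other Rfam families and 1.04 over 16 snoRNAs.

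**Figure D3:**
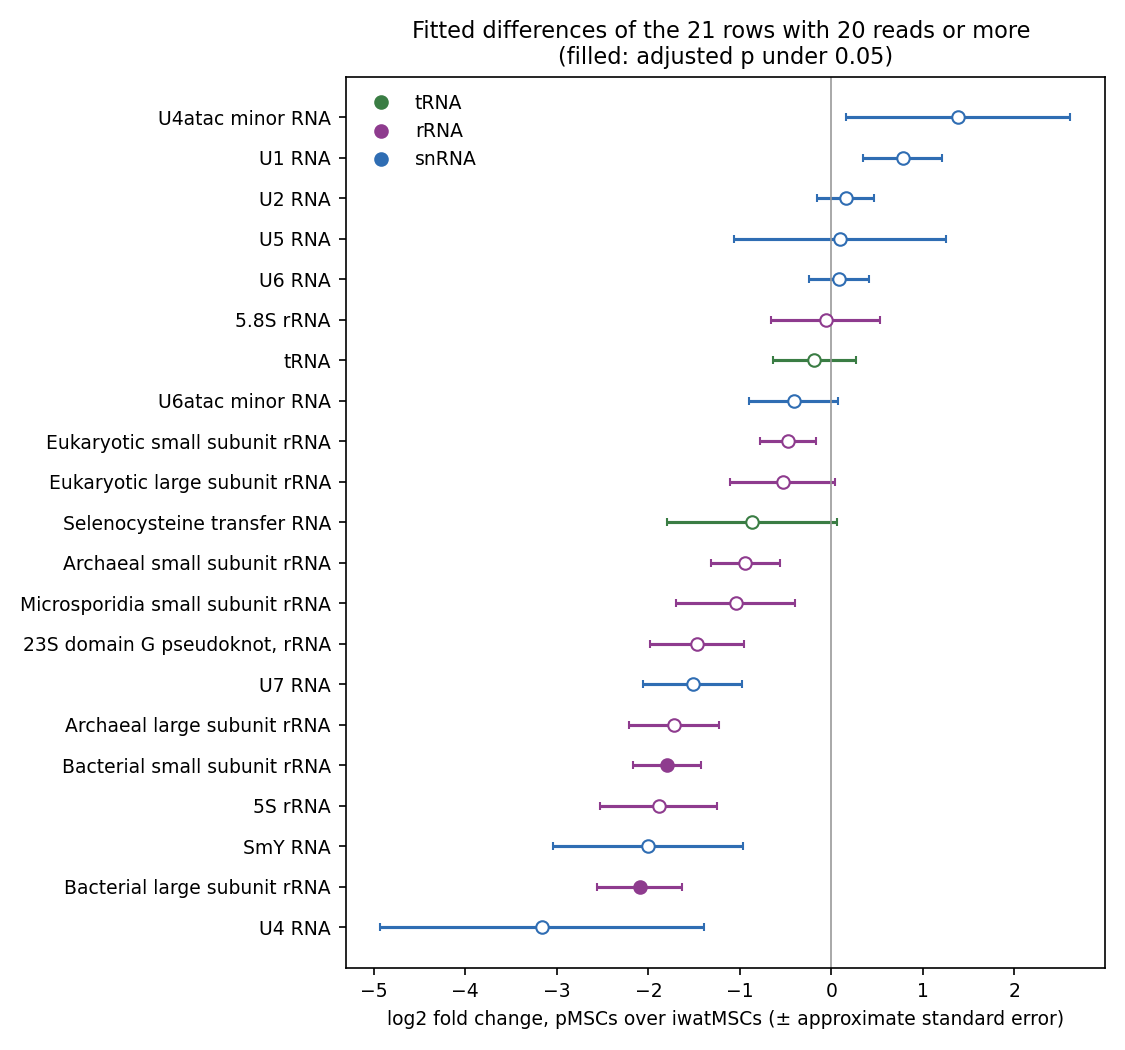
Fitted log2 fold change, pMSCs over iwatMSCs (horizontal axis, ± approximate standard error), of the members with 20 reads or more in total, colored by type and filled where the adjusted p was under 0.05. Bacterial small and large subunit rRNA are the filled symbols, at -1.79 and -2.09, and all rRNA families lie left of 0, where 5.8S, 18S and 28S do not stay when the members are scaled among themselves alone.

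The called families were the Rfam models of bacterial small and large subunit rRNA, the RNA cores of the bacterial ribosome. Levels are CPM scaled with TMM factors and are not corrected for length. Bacterial small subunit rRNA had 186, 244, 222 and 120 CPM in pMSCs and 697, 1022, 313 and 646 CPM in iwatMSCs. Every pMSCs library lay below every iwatMSCs library, with library 15 as the lowest of the iwatMSCs. The mean was 193 ± 54.4 CPM in pMSCs and 669 ± 290 CPM in iwatMSCs (SD), which the fit gave as a log2 fold change of -1.79 (SE 0.37, adjusted p = 0.0355), or 3.47-fold lower in pMSCs. Bacterial large subunit rRNA had 187, 192, 225 and 85.4 CPM in pMSCs and 728, 1246, 285 and 689 CPM in iwatMSCs. Again the tissues did not overlap, library 8 was the lowest of the pMSCs and library 15 the lowest of the iwatMSCs. The means were 173 ± 60.5 and 737 ± 394 CPM (SD), with a log2 fold change of -2.09 (SE 0.46, adjusted p = 0.0499), or 4.27-fold lower in pMSCs. These were the only members whose tissues did not overlap, and over all small RNAs tested 5.40% lay lower in pMSCs without overlap. They rested on 79743 and 83828 reads, of which 17483 and 15403 came from pMSCs.

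Both calls depended on which libraries were in the fit. Without iwatMSCs library 15 both were kept (adjusted p = 0.00952 for the small and 0.0161 for the large subunit). Without pMSCs library 5, 6, 7 or 8 the adjusted p for the small subunit was 0.0979, 0.0671, 0.0864 or 0.0833, and for the large subunit 0.115, 0.116, 0.0945 or 0.0965. Without iwatMSCs library 13, 14 or 16 it was 0.0840, 0.0704 or 0.0945 for the small subunit and 0.104, 0.0899 or 0.120 for the large. The log2 fold change stayed negative each time, between -2.03 and -1.53 for the small and between -2.36 and -1.74 for the large subunit. Scaled among the members alone, the small subunit lost its call (log2 fold change -0.97, adjusted p = 0.0981), and with TMM factors of mature miRNAs the large subunit was not called (adjusted p = 0.0559).

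The 2 models kept a similar ratio, with 0.713 to 1.22 large subunit reads for each small subunit read over all 8 libraries. For each read of the tRNA family, bacterial small subunit rRNA had 0.195, 0.418, 0.214 and 0.286 reads in pMSCs and 0.774, 0.802, 1.11 and 0.682 reads in iwatMSCs. The low level of library 15 was shared by tRNA, and on this ratio library 15 was the highest of all. Neither this ratio nor that to the 18S family was planned, and both are given without a test. For each read of the 18S family it had 0.0489 to 0.235 reads in pMSCs and 0.110 to 0.518 reads in iwatMSCs, so that on this ratio the tissues overlapped and library 15 was the lowest of the iwatMSCs. Rfam models of bacterial and archaeal rRNA are matched by sequence and structure, and a match does not show the organism. The source of these reads was not tested. One more bacterial family, the small signal recognition particle RNA, which is not an rRNA and was looked up after the values above were seen, had 27, 26, 9 and 20 reads in pMSCs and 47, 47, 19 and 53 in iwatMSCs. Its tissues overlapped, and its log2 fold change was -0.94 (SE 0.49, adjusted p = 0.369).

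The 4 other rRNA models of non-mammalian organisms had negative log2 fold changes but did not pass the test, with 3 of them under an unadjusted p of 0.05 and 1 called by DESeq2. The pseudoknot of the domain G of 23S rRNA, a piece of the bacterial large subunit that may share reads with the model above, had 19.6, 18.9, 19.3 and 6.27 CPM in pMSCs and 43.6, 77.1, 16.2 and 40.9 CPM in iwatMSCs. Only library 15 kept the tissues from separating here (log2 fold change -1.47, SE 0.51, adjusted p = 0.231). Archaeal large subunit rRNA had 6.36, 6.63, 8.31 and 2.46 CPM against 16.4, 27.5, 7.59 and 26.9 CPM (log2 fold change -1.72, SE 0.49, adjusted p = 0.131). Archaeal small subunit rRNA had 17.1, 20.7, 27.8 and 21.2 CPM against 52.4, 64.2, 18.6 and 31.4 CPM (log2 fold change -0.94, SE 0.37, adjusted p = 0.317). In both archaeal families library 15 was again the iwatMSCs library within the pMSCs range. Microsporidia small subunit rRNA, from a group of fungus-related parasites, had only 356 reads, at 0.533 to 2.09 CPM in pMSCs and 0.828 to 5.69 CPM in iwatMSCs (log2 fold change -1.05, SE 0.65, adjusted p = 0.434, and -0.28 without library 16). All 6 models of other organisms together had a median log2 fold change of -1.60 and summed to 417, 485, 503 and 236 CPM in pMSCs and 1538, 2439, 641 and 1440 CPM in iwatMSCs. They made up 4.29% to 11.9% of the rRNA reads in pMSCs and 9.69% to 31.4% in iwatMSCs.

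**Figure D4:**
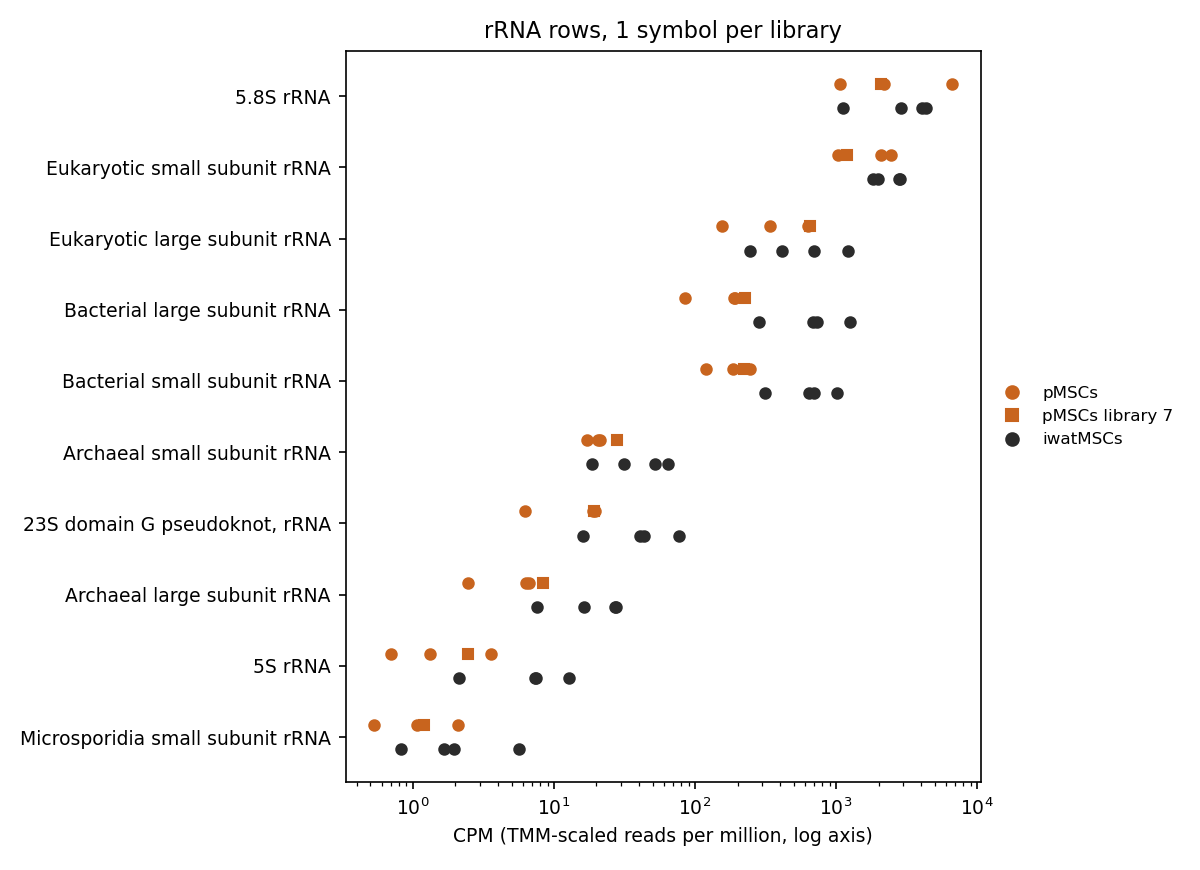
Level of each rRNA family (TMM-scaled CPM, log axis) in each library, with pMSCs in orange (library 7 as squares) and iwatMSCs in black below them. Bacterial small and large subunit rRNA are the only families whose symbols do not overlap between the tissues, with at most 244 and 225 CPM in pMSCs and at least 313 and 285 CPM in iwatMSCs.

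The rRNAs of the cytosolic ribosome held most rRNA reads, and none of the 4 families passed edgeR's test (all 4 negative, or 5S only when the members were scaled among themselves, median log2 fold change -0.50). At an unadjusted p under 0.05 there was 1, 5S rRNA, which DESeq2 also called. 5.8S rRNA, the short RNA that pairs with 28S in the large subunit, was the largest member with 541969 reads. It had 6596, 2194, 2075 and 1072 CPM in pMSCs and 1115, 4365, 2898 and 4078 CPM in iwatMSCs, with library 5 far above the other pMSCs libraries and library 13 far below the other iwatMSCs libraries (log2 fold change -0.06, SE 0.60, adjusted p = 0.978, and -0.83 without library 5). Eukaryotic small subunit rRNA, the 18S family, had 2079, 1038, 1199 and 2447 CPM in pMSCs and 1829, 1973, 2832 and 2769 CPM in iwatMSCs. The 2 lowest libraries were pMSCs and the 2 highest were iwatMSCs, with overlap between them (log2 fold change -0.48, SE 0.30, adjusted p = 0.449). Eukaryotic large subunit rRNA, the 28S family, had 633, 340, 652 and 155 CPM against 415, 696, 246 and 1217 CPM (log2 fold change -0.53, SE 0.57, adjusted p = 0.712). 5S rRNA, transcribed by RNA polymerase III apart from the other rRNAs, had only 875 reads, at 3.58, 1.32, 2.46 and 0.697 CPM in pMSCs and 7.46, 7.39, 2.14 and 12.7 CPM in iwatMSCs. Its mean was 2.01 ± 1.27 CPM in pMSCs and 7.43 ± 4.33 CPM in iwatMSCs (SD), and library 15 lay within the pMSCs range (log2 fold change -1.89, SE 0.64, adjusted p = 0.217).

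The make-up of the rRNA reads varied between libraries of the same tissue. 5.8S supplied 67.8%, 54.1%, 46.8% and 27.4% of the rRNA reads in pMSCs and 22.7%, 46.0%, 43.8% and 42.8% in iwatMSCs. The 18S family supplied 21.4%, 25.6%, 27.0% and 62.6% in pMSCs and 37.3%, 20.8%, 42.8% and 29.1% in iwatMSCs. pMSCs library 8, with the least 5.8S of its tissue, was thus the library with the largest 18S part of all 8.

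The tRNA family, a single total over all tRNA isotypes, was the largest member that is not an rRNA, with 144843 reads. It had 956, 584, 1034 and 418 CPM in pMSCs and 900, 1274, 281 and 948 CPM in iwatMSCs. iwatMSCs library 15 was the lowest and library 14 the highest of all 8. The mean was 748 ± 295 CPM in pMSCs and 851 ± 414 CPM in iwatMSCs (SD), with a log2 fold change of -0.19 (SE 0.46, adjusted p = 0.890). Selenocysteine tRNA, which inserts selenocysteine at recoded UGA codons, had 218 reads in all: 21, 15, 33 and 4 in pMSCs and 33, 57, 2 and 53 in iwatMSCs. Libraries 8 and 15, with the fewest reads of the tRNA family in their tissues, also had the fewest of this one (log2 fold change -0.87, SE 0.93, adjusted p = 0.709).

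None of the 5 snRNAs of the major spliceosome passed edgeR's or DESeq2's test over the whole table, and 0 had an unadjusted p under 0.05 (4 positive, 1 negative, median log2 fold change 0.09). U6 was the most read of them, with 81.9, 34.9, 38.5 and 32.6 CPM in pMSCs and 41.3, 54.6, 35.0 and 46.3 CPM in iwatMSCs. Library 5 was the highest of all, while the other 3 pMSCs libraries lay around the lowest iwatMSCs library (log2 fold change 0.08, SE 0.32, adjusted p = 0.937). U1 had 33.1, 22.5, 15.5 and 19.1 CPM in pMSCs and 5.66, 16.3, 8.89 and 21.7 CPM in iwatMSCs. Its mean was 22.6 ± 7.59 CPM in pMSCs and 13.1 ± 7.26 CPM in iwatMSCs (SD), with a log2 fold change of 0.78 (SE 0.44, adjusted p = 0.369). Scaled among the members alone, U1 was called higher in pMSCs (log2 fold change 1.61, adjusted p = 0.0394). That fit adjusted p over 23 families only, and its own scaling moved the median of the members from -0.87 to -0.0043. U1 was not called in the main fit or in any of the other 19 alternatives. As a part of the snRNA reads U1 did not overlap between the tissues, at 24.9%, 34.4%, 23.1% and 33.2% in pMSCs and 9.68%, 13.9%, 17.6% and 12.4% in iwatMSCs, a comparison picked after its values were seen and given without a test. The U1 part also depends on U4, which took 32.3% and 55.9% of the snRNA reads in iwatMSCs libraries 14 and 16. For each U6 read, the overlap returned, with 0.402 to 0.646 U1 reads in pMSCs and 0.137 to 0.469 in iwatMSCs. U2 was even over the libraries apart from library 5, at 4.07 to 9.40 CPM in pMSCs and 4.40 to 6.25 CPM in iwatMSCs (log2 fold change 0.16, SE 0.31, adjusted p = 0.859).

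U4, the partner that U6 leaves on activation of the spliceosome, was the most uneven member. It had 118, 72, 142 and 0 reads in pMSCs and 97, 846, 1 and 2429 reads in iwatMSCs, which is 0 CPM in library 8 (a limit of 0.123 CPM at 3 reads) and 98.0 CPM in library 16. Libraries 14 and 16 held most of the reads, and the other iwatMSCs libraries lay within the range of the pMSCs (log2 fold change -3.16, SE 1.77, adjusted p = 0.371, and -1.84 without library 16). U4 thereby made up 55.9% of the snRNA reads in library 16 and 32.3% in library 14, against at most 9.82% in the other 6 libraries. U5 had 0, 3, 4 and 6 reads in pMSCs and 3, 6, 0 and 3 in iwatMSCs, too few to compare.

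The minor spliceosome was close to the limit of this depth, and none of its 4 snRNAs passed edgeR's test or had an unadjusted p under 0.05. Of the 2 that DESeq2 gave an adjusted p, U4atac and U6atac, none passed either. U6atac, the counterpart of U6, had 20, 13, 12 and 12 reads in pMSCs and 24, 28, 12 and 17 in iwatMSCs (log2 fold change -0.41, SE 0.49, adjusted p = 0.739). U4atac had 6, 6, 1 and 10 reads against 3, 0, 0 and 6 (log2 fold change 1.38, SE 1.23, adjusted p = 0.633, and 2.40 without library 16). U11 had 4 reads in pMSCs and 3 in iwatMSCs, and U12 had none in pMSCs and 4 in iwatMSCs, so that no difference was detectable. U7 had 4, 10, 7 and 4 reads in pMSCs and 9, 19, 21 and 25 in iwatMSCs, that is 0.214, 0.387, 0.325 and 0.164 CPM against 0.386, 0.851, 0.916 and 1.01 CPM. The tissues met at the highest pMSCs and the lowest iwatMSCs library, and U7 did not pass edgeR's test (log2 fold change -1.52, SE 0.54, adjusted p = 0.248) but passed that of DESeq2 (adjusted p = 0.0439). SmY, a spliceosomal RNA known from nematodes, had 10, 0, 3 and 2 reads against 11, 20, 17 and 23 (log2 fold change -2.004, SE 1.03, adjusted p = 0.369, and -3.31 without library 5), and as with the bacterial models the match does not show the source. 7SK, the snRNA that holds the elongation factor P-TEFb inactive, is listed under another type in the table and had 80, 53, 58 and 54 reads in pMSCs and 71, 73, 35 and 74 in iwatMSCs (log2 fold change 0.05, adjusted p = 0.969).

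**Figure D5:**
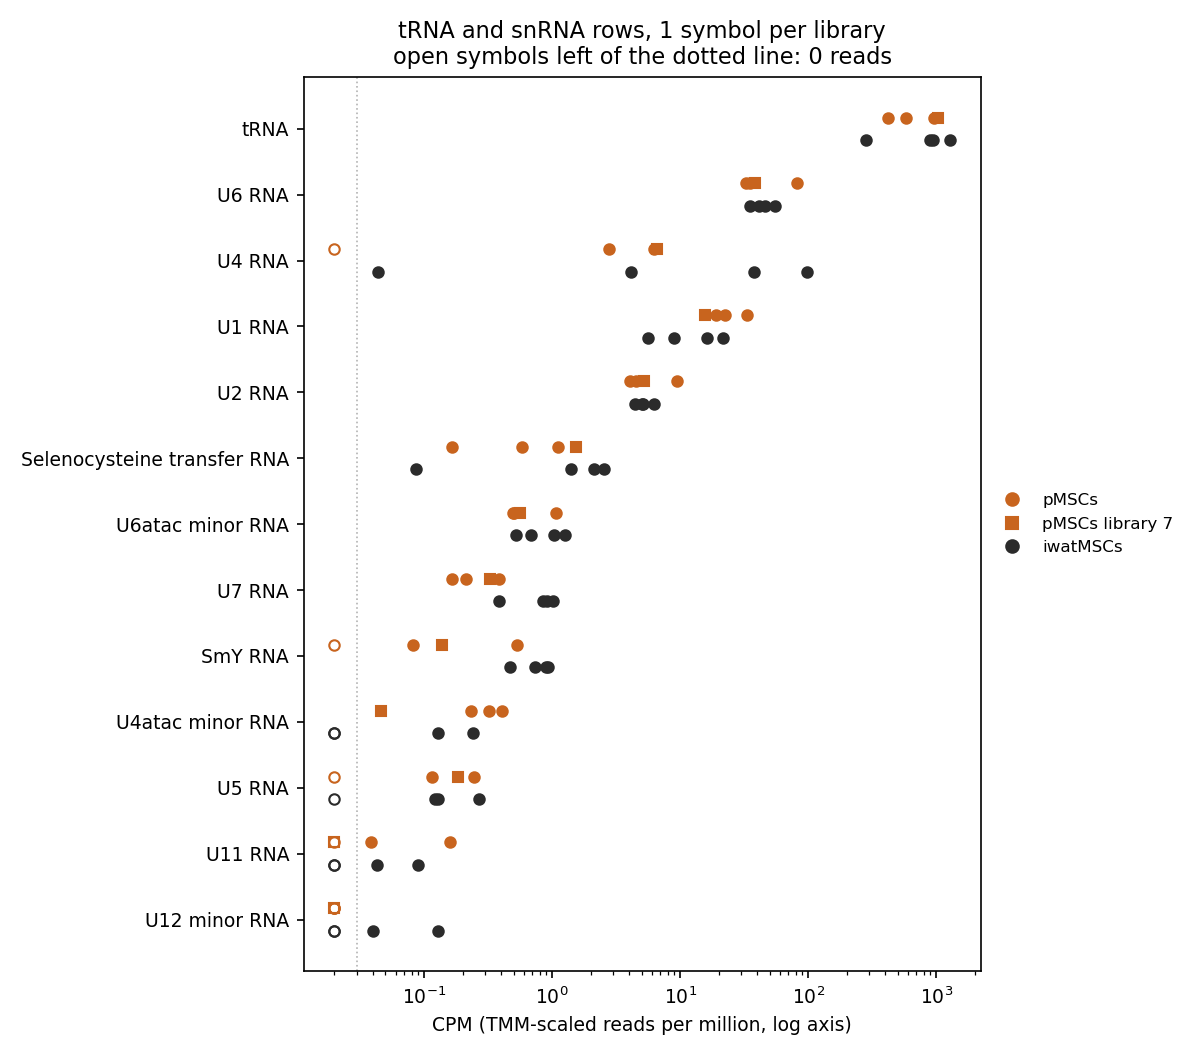
Level of each tRNA and snRNA family with reads (TMM-scaled CPM, log axis) in each library, with pMSCs in orange (library 7 as squares), iwatMSCs in black below them and open symbols for 0 reads. The tissues overlap in every family, and U4 spreads from 0 reads in library 8 to 98.0 CPM in library 16.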

How the data were processed

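Small RNA was sequenced by BGI from libraries with unique molecular identifiers. The authors deposited a read count for each small RNA and library, and a score called TPM, a whole number that never exceeded the reads (0 of 45728 pairs) with differing totals per library. Bowtie2 is named in the submitters' processing notes with no version, and the genome build and Rfam release of these reads are not given in the sources used here. Whether identifiers were collapsed before counting is not given either. The study's methods left out 1 library without naming it.

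Small RNAs reaching a mean of 1 read or more in either tissue entered a two-sided quasi-likelihood F test on the deposited counts (edgeR 4.0.16 with TMM factors, run in R 4.3.3, with no term besides tissue), adjusted after Benjamini-Hochberg over all 4092 tested, with a threshold of 0.05. The SE of a log2 fold change was taken as its size over the square root of F and is approximate. Shares of reads were compared with exact permutation tests (scipy 1.17.1, numpy 2.4.6 and pandas 2.3.3 in Python 3.11.15; figures with matplotlib 3.10.9). Intervals are Wilson intervals at 95%, and the floor for 0 reads is 3 reads per library (over the tissue, for the median with a bound). Both cover counting error only. Alternatives were DESeq2 1.42.0 and its size factors, library totals, TMM of mature miRNAs, limma 3.58.1 on log2(deposited TPM + 1), other filters, a fit of the members alone, other denominators of the shares, and each library left out in turn. Scripts were tested on simulated data of 8 libraries, drawn with the dispersion trend of all small RNAs and not with that of the members. There edgeR recovered 10 of 100 4-fold changes (8 of 22 at 10 CPM or more) and 1 of 100 2-fold changes. It made 12 calls, 1 of them false. DESeq2 recovered 20 and 3 of these changes, with 13 false calls among 36, and limma, run there on unscaled counts, recovered 0. The members varied more within a tissue than all small RNAs did, so these rates are not those of the members. A family that did not pass may thus still differ between the tissues.

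The 3 RNA types to describe and the lists were chosen with earlier results of these data known. Within these types every family was taken, whatever its values. Named are the 5 most abundant families of each type, all with an adjusted p under 0.05, and all spliceosomal, U7, 7SK and rRNA families. Others were named so that every member was accounted for. tRNA isotypes, mitochondrial tRNA and mitochondrial rRNA had been listed too, but no family in these types carries such a name, and they were not analysed here. 7SK is no member and was named beside them.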

Additional observations from a re-analysis of the deposited data

Results flagged for a closer look

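In 60 groups of 4 libraries, 8 values lay far from the other 3 of their tissue by Dixon's criterion. Chance alone gives such a gap in about 1 in 20 groups of independent, normally distributed values. The groups here are not independent, since U6 is part of the snRNA share and the TPM flags all concern library 7. Groups without any read could not be flagged. The 8 values are therefore not compared with a number given by chance. pMSCs library 5 was the highest of its tissue in the rRNA share (0.876%), the snRNA share (0.0120%), U6 (81.9 CPM) and U6atac (1.07 CPM). pMSCs library 8 was the lowest for the pseudoknot of the domain G of 23S rRNA (6.27 CPM). pMSCs library 7 was the lowest in the deposited TPM as a percent of reads, at 18.6% for tRNA, 19.6% for rRNA and 30.9% for snRNA.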

How the results depend on the processing

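The number of members called was 2 with all 8 libraries in edgeR, and again 2 with DESeq2 size factors, library totals, no filter and a mean of at least 10 reads. It was 1 (bacterial small subunit rRNA) with TMM factors of mature miRNAs, where the large subunit had an adjusted p of 0.0559. It was 0 with limma on the deposited TPM (not scaled between libraries, here and below), where only 0.493% of all small RNAs were called. It was 5 with DESeq2, which added 5S (adjusted p = 0.0366), archaeal large subunit rRNA (0.0104) and U7 (0.0439), while DESeq2 called 349 small RNAs in all (8.53%) where edgeR called 140. Leaving out 1 library gave 0 to 2. A fit of the 23 members alone gave 2, bacterial large subunit rRNA lower and U1 higher (log2 fold change 1.61, adjusted p = 0.0394). In that fit bacterial small subunit rRNA was at -0.97 (adjusted p = 0.0981), and the signs of 5.8S (0.36), tRNA (0.60), U6atac (0.27), 18S (0.35) and 28S (0.19) turned. Its own scaling moved the median of the members tested to -0.00.

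Chosen after seeing the data, edgeR on the deposited TPM gave 0 calls with 8 libraries and 0 without library 7, limma on TPM without library 7 gave 0, and a fit without hairpins gave 1 (bacterial small subunit; large subunit adjusted p = 0.0577). edgeR on TPM with library 7 turned the log2 fold change of 5S (0.39), tRNA (0.65), U7 (0.26), U6atac (1.22), the 23S pseudoknot (0.64), selenocysteine tRNA (1.33), archaeal small (0.26) and large subunit (0.58), 18S (0.12), 28S (0.94), bacterial large subunit (0.027) and Microsporidia rRNA (0.81). Without library 7 it turned only 5.8S (0.050) and U5 (-0.076), and limma on TPM without library 7 turned U5 (-0.10). limma on TPM with all libraries turned U2 (-0.11) and U6 (-0.46), and its median over all small RNAs was -0.94. Library totals turned U6 (-0.036). Leaving out 1 library, the log2 fold change ranged from -0.83 to 0.22 for 5.8S, -0.47 to 0.054 for tRNA, -0.18 to 0.27 for U2, -0.33 to 0.69 for U5 and -0.33 to 0.22 for U6, and the snRNA share difference from -0.00452 to 0.000201 percentage points. None of these turned values passed the threshold, and the cause was not tested.

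The tRNA and rRNA share differences stayed negative under all 12 alternatives. No share difference passed the threshold (lowest adjusted p = 0.171 in the exact permutation test, with 1 library left out). Without 1 library this test cannot give a p under 0.05, so those alternatives could not pass whatever the values. No paired analysis was possible because the tissues share no library numbers in the labels. Families under 100 reads, among them U5, U7, U11, U12, U4atac and SmY, are limited by depth.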
